A study of Mus musculus with 8 samples.

Results

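Solute carriers are the membrane proteins that move nutrients, ions and metabolites across the plasma membrane and the membranes of organelles. The genes described here were chosen by name and selected on total reads. They carry a symbol of the solute carrier form (Slc or Slco) and have at least 100 reads summed over all embryos and both alleles. X-linked genes and the system A amino acid transporters Slc38a1, Slc38a2 and Slc38a4 were left out. Of 22810 genes in the counts, 331 have such a symbol, 153 reach 100 reads, and 147 are members. A further 178 genes of this form stayed under 100 reads. The total that chose the members is a description and no finding. Just inside the limit were Slc27a1 with 101 reads, Slc39a3 with 105, and Slc29a4 and Slc3a1 with 106 each. Just outside were Slc16a13 with 98 reads, Slc36a1 and Slc2a7 with 86 each, and Slc7a2 with 82.

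RNA was sequenced from single F1-hybrid mouse blastocysts at embryonic day 3.5 (E3.5), collected after natural mating and lysed without in vitro culture. The forward cross had a C57BL/6 (B6) mother and a Mus musculus castaneus (cast) father and gave 3 embryos. The reverse cross had a cast mother and a B6 father and gave 5 embryos, numbered 1, 2, 3, 5 and 7. All embryos carried 1 B6 and 1 cast genome, none was treated or mutated, and the reads counted are those spanning a SNP between the strains. A B6 read is therefore maternal in the forward cross and paternal in the reverse cross, so reciprocal crosses separate the parent of origin from the strain. The sources used here do not say which embryos shared a litter, and p-values measure the spread between these embryos.

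As background, the blastocyst takes up amino acids, glucose, pyruvate, lactate, nucleosides and metals from the fluid of the reproductive tract, and its outer layer, the trophectoderm, moves sodium and chloride inward to fill the cavity. Most carriers of the SLC25 family serve the mitochondrial inner membrane. SLC35 and SLC37 proteins serve the endoplasmic reticulum and Golgi apparatus, and most SLC1, SLC5, SLC6, SLC7, SLC22, SLC28 and SLC29 proteins work at the cell surface. An imprinted gene is one read from the allele of a single parent, and the system A gene Slc38a4 is known for paternal expression in the mouse.

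The promoters of the member that differed between the parental alleles (Slc29a4) and of a pair of related nucleoside carriers read from opposite strains (Slc28a1 and Slc28a3) are shown first, because the allelic results below turn on these genes. Each run is the 250 bases before the RefSeq start in GRCm38.p6, 5′ to 3′ on the gene's strand, with every CG pair in capitals, since DNA methylation in mammals acts mainly on this pair. The positions are chr5:142701851-142702100 on the plus strand for Slc29a4, chr7:81114549-81114798 on the plus strand for Slc28a1 and chr13:58610878-58611127 on the minus strand for Slc28a3.
Slc29a4: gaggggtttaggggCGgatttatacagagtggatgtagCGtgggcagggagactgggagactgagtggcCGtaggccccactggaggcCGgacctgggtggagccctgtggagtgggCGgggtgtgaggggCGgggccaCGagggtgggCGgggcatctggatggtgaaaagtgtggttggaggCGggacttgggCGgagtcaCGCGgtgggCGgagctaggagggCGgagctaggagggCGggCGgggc
Slc28a1: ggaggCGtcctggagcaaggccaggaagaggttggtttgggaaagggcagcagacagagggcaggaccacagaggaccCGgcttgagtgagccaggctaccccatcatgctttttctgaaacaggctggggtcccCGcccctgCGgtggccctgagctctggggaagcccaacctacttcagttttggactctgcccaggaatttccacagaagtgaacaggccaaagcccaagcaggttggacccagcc
Slc28a3: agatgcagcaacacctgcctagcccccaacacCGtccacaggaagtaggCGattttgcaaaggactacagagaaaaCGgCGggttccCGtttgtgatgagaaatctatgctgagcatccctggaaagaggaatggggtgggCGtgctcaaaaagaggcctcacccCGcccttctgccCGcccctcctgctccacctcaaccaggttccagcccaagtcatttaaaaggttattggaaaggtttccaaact
Slc29a4 has 16 CG pairs in this window, Slc28a3 has 8 and Slc28a1 has 4. Among 32841 promoters of the same length, 25.4% hold at least as many CG pairs as Slc29a4, 43.0% as many as Slc28a3 and 62.2% as many as Slc28a1, and 92.1% hold at least 1 (CG, which reads the same on both strands). The RefSeq start used for Slc29a4 lies inside the gene as GENCODE annotates it. A promoter was matched for 117 members and not for 30. The median was 13 CG pairs in members' promoters and 6 in all promoters. All promoters were not limited to genes with at least 100 reads, as members were. This difference therefore cannot be tied to solute carriers. These are letters of the reference sequence, and no methylation was analysed here.

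The embryos had between 1060063 and 1632695 SNP-spanning reads, and members took 0.987 to 1.22% of them, with the highest share in reverse 1. All 147 members could be tested and 140 had a read in every embryo. Members' totals ran from 101 to 8609 reads with a median of 421, against 507 for the 9331 tested genes with at least 100 reads. The B6 share was 53.6 to 55.6% of members' reads and 57.4 to 58.3% of all reads. Trophectoderm, inner cell mass and primitive endoderm markers were all listed in the counts, with 10 of 10, 11 of 11 and 8 of 8 genes. The trophectoderm list summed to 4288 to 5326 CPM (here reads scaled to the embryo's total of SNP-spanning reads, with no further factor) in forward and 1325 to 4187 in reverse embryos, with reverse 1 lowest. The inner cell mass list summed to 2276 to 2441 CPM in forward and 1911 to 4021 in reverse embryos, and the primitive endoderm list to 1225 to 1382 and 698 to 1158. Macrophage and leukocyte markers, 12 of 12 in the counts, stood at 884 CPM in forward 1 with 99.8% maternal reads (1055 of them Lyz2), 43.4 to 56.4 in the other forward embryos and 3.77 to 6.01 in reverse embryos. Oocyte markers (8 of 10 in the counts) reached at most 27.8 CPM, cumulus cell markers (5 of 10) at most 11.3 and red blood cell markers (4 of 8) at most 51.2. The uterine and oviduct epithelium list (8 of 9), which includes Epcam of embryonic epithelium, summed to 718 to 876 CPM in forward and 905 to 1239 in reverse embryos. None of the listed genes in the counts was at 0 in every embryo, and the part of other cells in the results below was not tested.

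The first comparison asked whether members were read more from the paternal or the maternal allele. Slc29a4 alone differed at an adjusted p of at most 0.1 (edgeR quasi-likelihood test with strain as a term, adjusted over 12566 genes). That is 1 of 147 members (0.680%), against 1.42% of all genes tested and 1.49% of those with at least 100 reads, so the share was not above the background. Slc29a4 also met the skewed-expression criteria (beyond 0.5 on the log2 scale, leaning to the same parent whichever way the cross was made, with 20 or more reads per cross), as did 1.07% of all genes. It had 20 reads in the forward cross, just at that limit, and 18 of them were in forward 1. The median log2 ratio of paternal over maternal expression was 0.03 in members and -0.01 in all genes tested. Taking the median over members within each embryo, the paternal allele supplied 44.0% ± 1.15 of reads (SD over 3 embryos) in the forward cross and 56.1% ± 2.97 (5 embryos) in the reverse cross, beside 44.2% ± 0.395 and 56.2% ± 0.873 in autosomal genes with at least 100 reads.

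Slc29a4 (chr5:142692512-142722490, plus strand, mm10, no overlapping gene) encodes a relative of the equilibrative nucleoside transporters that carries monoamines. Its paternal reads were 17 of 18 in forward 1, 2 of 2 in forward 2, 19 of 23 in reverse 1, 34 of 34 in reverse 2, 5 of 5 in reverse 3, 7 of 7 in reverse 5 and 17 of 17 in reverse 7, and forward 3 had no read. Paternal reads were ahead in every one of the 7 embryos with reads, in both crosses. Over both crosses 5 of 106 reads were maternal, or 4.72% (95% Clopper-Pearson interval 1.55 to 10.7, which like all intervals here covers counting error only). The log2 ratio of paternal over maternal expression was 3.75 (SE 1.0, edgeR adjusted p = 0.0803). It was called without forward 3 (adjusted p = 0.0887) and without reverse 1 (adjusted p = 0.00473), and lost the call without any 1 of the other embryos, with an adjusted p of 1 without forward 1 and between 0.137 and 0.239 without forward 2 or reverse 2, 3, 5 or 7. Nearly all forward reads lay in forward 1, the embryo with the macrophage markers. The macrophage list was maternal there, and the part of other cells in Slc29a4 reads was not tested. The strain comparison did not call Slc29a4 (adjusted p = 0.871).

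Since both alleles come from the same embryo, the test was repeated with a term for each embryo, which called 6 members (4.08%) against 3.11% of all genes and 3.88% of those with at least 100 reads. Slc29a4 was among them (log2 4.19, edgeR adjusted p = 0.0315). The others were Slc7a8, Slc22a21, Slco2a1 and Slc39a2 toward the father and Slc25a10 toward the mother. Of the 6, Slc29a4 and Slc39a2 met the skewed-expression criteria under this fit.

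Slc39a2, a zinc importer of the ZIP family, had paternal reads of 215 of 312, 76 of 178 and 143 of 206 in forward embryos 1, 2 and 3. In reverse embryos 1, 2, 3, 5 and 7 the numbers were 28 of 33, 87 of 145, 480 of 739, 85 of 104 and 215 of 283. Paternal reads were ahead in all embryos but forward 2. The paternal share was 60.3% ± 15.3 (n = 3) in the forward and 73.5% ± 10.7 (n = 5) in the reverse cross, and the ratio was 1.01 on the log2 scale with embryo terms (edgeR adjusted p = 0.00494), against an adjusted p of 1 without them. Mettl17 overlaps Slc39a2 on the same strand, so reads of both may not be separable.

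Slc7a8, an exchanger of large neutral amino acids, was read only from the paternal B6 allele in the reverse cross, with 11, 19, 21, 14 and 8 reads in embryos 1, 2, 3, 5 and 7. The 0 of 73 maternal reads allow a maternal share of up to 4.11%. In the forward cross both alleles were read, with 29 of 75, 11 of 22 and 3 of 8 paternal reads, and the paternal share was 42.1% ± 6.90 (n = 3). The crosses did not overlap. The embryo-term fit called this gene between parents (log2 3.29, edgeR adjusted p = 0.00988) and between strains (toward B6, adjusted p = 0.00120), whereas without embryo terms neither call was made (adjusted p = 0.704 and 0.164).

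Slco2a1, the prostaglandin transporter, had the same layout. Its paternal reads were 78 of 219, 95 of 203 and 40 of 148 in the forward cross, a share of 36.5% ± 9.91 (n = 3). In the reverse cross they were 37 of 37, 122 of 122, 74 of 84, 50 of 60 and 100 of 113, a share of 92.0% ± 7.59 (n = 5). The embryo-term fit gave log2 1.38 toward the father (edgeR adjusted p = 0.0208) together with a call toward B6 (adjusted p = 0.000164). Gm47468 overlaps it on the other strand, and the sources used here do not give the strand setting of the counting.

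Slc22a21, a carnitine transporter, had paternal reads of 23 of 96, 23 of 51 and 21 of 24 in forward embryos, and of 119 of 122, 48 of 51, 17 of 22, 32 of 33 and 17 of 18 in reverse embryos. The forward embryos ranged widely, so that the father's allele was behind in forward 1 and 2 and ahead in forward 3. It was called toward B6 in the strain comparison (log2 of cast over B6 -1.72, SE 0.55, edgeR adjusted p = 0.0441) and toward the father with embryo terms (adjusted p = 0.0207). Slc25a10, the mitochondrial dicarboxylate carrier, was the member called toward the mother. Its paternal share was 31.5% ± 7.66 (n = 3) in the forward and between 40.3 and 55.6% in the 5 embryos of the reverse cross, with log2 -0.56 (SE 0.16, edgeR adjusted p = 0.0544) with embryo terms and an adjusted p of 1 without them. Paternal reads of Slc25a10 were ahead in reverse 2, 3 and 7 (134 of 241, 271 of 492 and 126 of 237). The 2 crosses thus did not share a lean toward the mother.

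**Figure D1:**
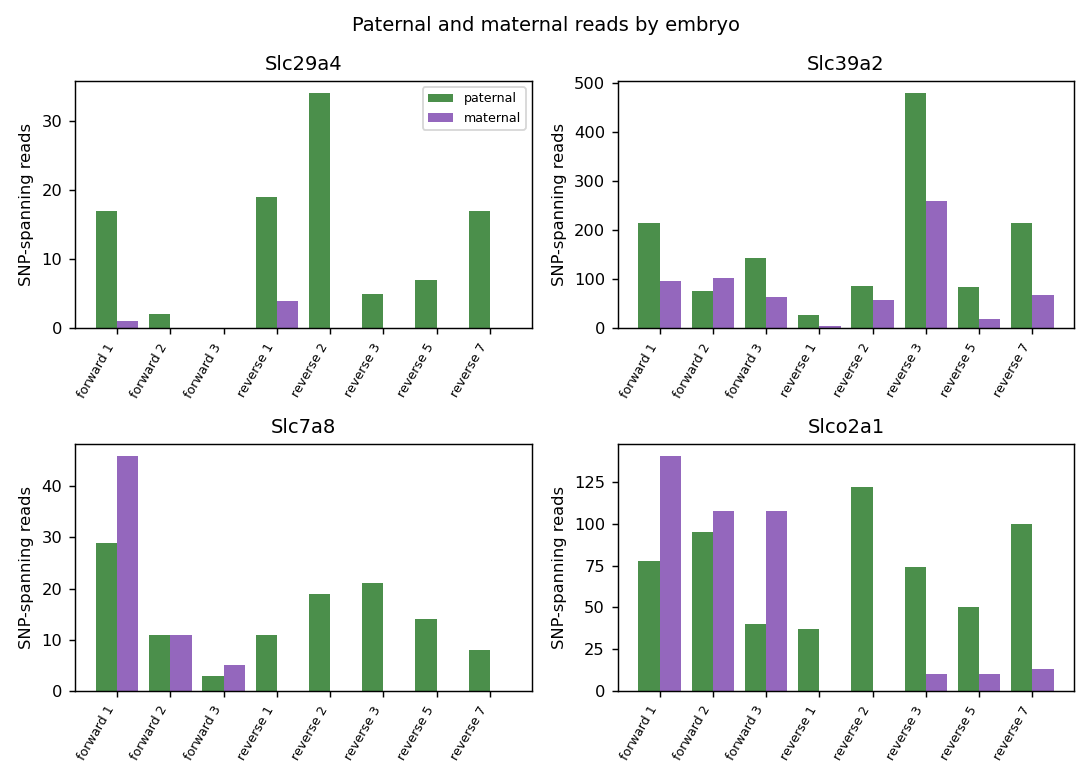
Paternal (green) and maternal (purple) SNP-spanning reads of Slc29a4, Slc39a2, Slc7a8 and Slco2a1 in each of the 8 embryos, 1 bar per allele and embryo, on linear axes that differ between panels. Slc29a4 bars are paternal in both crosses, while Slc7a8 and Slco2a1 have maternal reads mainly in the forward embryos.

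The members next in line toward either parent did not pass the test. Toward the father, Slc13a5, a citrate transporter, had paternal reads of 12 of 16, 6 of 9 and 11 of 16 in forward and 41 of 50, 9 of 22, 40 of 46, 21 of 37 and 20 of 20 in reverse embryos (log2 1.37, SE 0.64, edgeR adjusted p = 0.636). Slc25a17, a carrier of the peroxisomal membrane, had a paternal share of 56.9% ± 4.42 (n = 3) and 61.3% ± 11.4 (n = 5) and an adjusted p of 0.879. It was the only member of 73 with at least 20 reads in every embryo whose paternal reads were ahead in all 8, as they were in 1.16% of 5609 such genes.

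Toward the mother, the sulfate transporters Slc26a11 and Slc26a2, the zinc importer Slc39a10, the cystine transporter subunit Slc3a1 and the sugar phosphate exchanger Slc37a1 came next. Their log2 ratios of paternal over maternal expression were -1.23, -0.98, -0.83, -1.36 and -0.61, with edgeR adjusted p-values between 0.479 and 0.782. Slc3a1 had 0 of 10, 3 of 11 and 3 of 13 paternal reads in the forward cross, but 9 of 12, 9 of 22, 6 of 10, 2 of 18 and 2 of 10 in the reverse cross. No member had maternal reads ahead in all 8 embryos, against 0.749% of the genes with at least 20 reads in each. The 3 system A genes that were left out had mean paternal shares of 95.3% and 99.7% (Slc38a1), 99.6% and 99.9% (Slc38a4) and 97.0% and 94.4% (Slc38a2) in the forward and reverse cross.

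A further test asked which members were expressed equivalently from the parental alleles, that is, within a 2-fold difference in either direction. By paired one-sided edgeR tests 50 members passed (34.0%), against 35.4% of all genes and 47.6% of those with at least 100 reads. With a term for each embryo 84 members passed (57.1%), against 45.3% of all genes and 61.0% of those with at least 100 reads. All 5 members with the most reads were among the 50. Slc25a39, a mitochondrial glutathione carrier, had a paternal share of 44.2% ± 2.62 (n = 3) and 56.0% ± 3.19 (n = 5, equivalence adjusted p = 0.0178). Slc25a3, the mitochondrial phosphate carrier, had 48.3% ± 3.90 and 51.7% ± 3.04 (adjusted p = 0.0178). Both alleles were thus read at close to equal numbers in each cross.

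Slc3a2, the heavy chain that brings SLC7 amino acid exchangers to the cell surface, had a paternal share of 51.5% ± 1.53 and 48.1% ± 4.94 (equivalence adjusted p = 0.0265). Slc44a1, a choline transporter, had 42.2% ± 5.70 and 55.4% ± 6.42 (adjusted p = 0.0774), and Slc25a13, the aspartate-glutamate carrier, 46.7% ± 2.99 and 54.6% ± 6.95 (adjusted p = 0.0209). These 5 genes held 25.7% of members' reads. Without any 1 of the forward embryos 16 to 17 members passed, and without reverse 5 there were 31. The shares of all genes passing without these embryos are not given here.

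**Figure D2:**
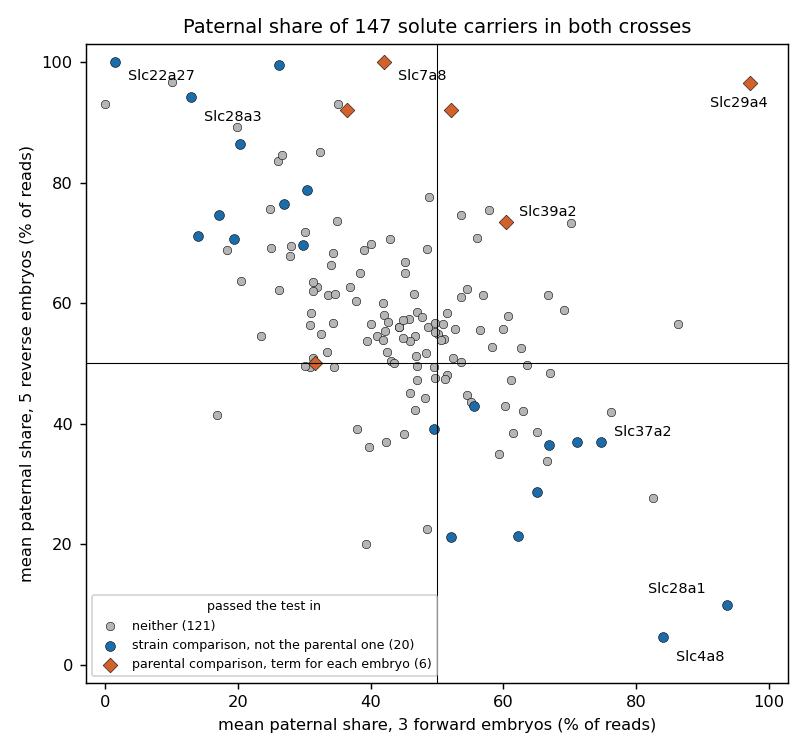
Mean paternal share (% of reads) of the 147 members in the 3 forward embryos (horizontal axis) and the 5 reverse embryos (vertical axis), 1 point per gene, with lines at equal reads. Genes called between strains and not between parents (blue circles, 20) lie toward the upper left (B6) and lower right (cast), and among the 6 called between parents with embryo terms (orange diamonds) Slc29a4 lies farthest to the upper right, at 97.2 and 96.5%.

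The strain comparison asked which members were read more from B6 or from cast, whichever parent it came from. Each allele library was scaled by its own size, while B6 reads were 57.4 to 58.3% of all reads. Fitted ratios and calls are therefore relative to all genes. They lie further toward cast than the reads themselves, so a gene with even reads leans toward cast in the fit. It called 21 of 147 members (14.3%), against 15.4% of all genes and 15.0% of those with at least 100 reads. Of these, 11 were higher from B6 (10.9% of all genes were) and 10 from cast (4.48% of all genes). With 1 library size per embryo in place of 1 per allele, the calls were 29 toward B6 and 4 toward cast. Toward B6 were then 87.9% of members' calls and 87.4% of all genes' calls, against 52.4% and 70.9% with 1 per allele. The median log2 ratio of cast over B6 over all genes moved from -0.06 to -0.39. With a term for each embryo 48 members were called (32.7%), 26 toward B6 and 22 toward cast, against 25.6% of all genes and 29.8% of those with at least 100 reads. The 21 members were also called by DESeq2 and with embryo terms. The median size of the log2 strain difference was 0.46 in members, 0.52 in all genes and 0.41 in genes with at least 100 reads.

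Reads were aligned to mm10, a B6 genome, and the part of this in differences toward B6 was not tested. Of the 73 members with at least 20 reads in every embryo, 16 had B6 reads ahead in all 8 embryos and 5 had cast reads ahead, where 20.7% and 2.85% of 5609 such genes did. Of the 21 called members 15 have no overlapping gene and 6 are overlapped by a gene on the other strand. Without forward 1 the comparison called 11 members, without forward 2 it called 13, and without reverse 1 it called 34. The shares of all genes called in these fits are not given here. Slc22a27, Slc28a1, Slc28a3, Slc37a1, Slc37a2, Slc39a11, Slc4a8 and Slc7a5 were called under every alternative that tested them.

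**Figure D3:**
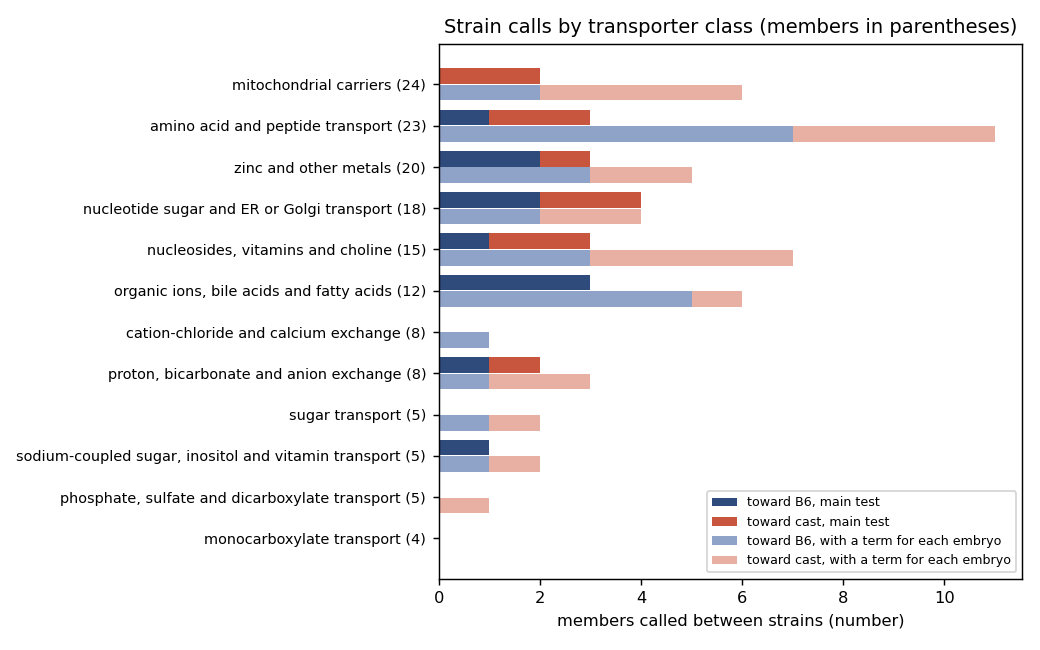
Number of members called between strains in each transporter class, with the size of the class in parentheses, from the test without (dark bars) and with (light bars) a term for each embryo, split toward B6 (blue) and cast (red). Organic ion carriers were called toward B6 only in the darker bar (3), and amino acid carriers gave the most calls with embryo terms (11). Over all genes 10.9% were called toward B6, 4.48% toward cast and, with embryo terms, 25.6% in either direction.

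Counts by class stand beside 10.9% of all genes called toward B6, 4.48% toward cast and 25.6% in either direction with embryo terms. Equivalent between parents were 35.4% of all genes and 47.6% of those with at least 100 reads. Differences between classes were not tested. Among 15 nucleoside, vitamin and choline carriers, 1 was higher from B6 and 2 from cast, and 8 were equivalent between parents. Slc28a1 and Slc28a3 encode sodium-coupled nucleoside transporters, the first for pyrimidine nucleosides and the second for pyrimidines and purines, and they were read from opposite strains. Slc28a1 had B6 reads of 14 of 105, 1 of 67 and 3 of 77 in forward embryos and 12 of 38, 5 of 76, 6 of 86, 3 of 67 and 0 of 50 in reverse embryos. Its cast allele was therefore ahead in all 8 embryos, whether it came from the father or the mother. The fitted factor, relative to all genes, was 16.2 (log2 4.02, SE 0.45, edgeR adjusted p = 9.48e-07). In reverse 1 the B6 share of 31.6% (interval 17.5 to 48.7) was the highest.

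Slc28a3 had B6 reads of 305 of 375, 272 of 289 and 85 of 99 in forward embryos and 275 of 288, 303 of 324, 178 of 199, 97 of 102 and 126 of 129 in reverse embryos. B6 was ahead in all 8, with a share of 87.1% ± 6.48 (n = 3) when maternal and 94.2% ± 3.06 (n = 5) when paternal, and the fitted factor was 8.04 (log2 -3.01 for cast over B6, SE 0.42, edgeR adjusted p = 1.72e-05). Slc29a2, an equilibrative nucleoside transporter, was the other gene of this class called toward cast. Its B6 share was 28.8% ± 18.5 and 37.0% ± 11.2 (log2 1.68, SE 0.55, adjusted p = 0.0497), from 2 to 32 reads an embryo. Slc28a1 and Slc28a3 were called under all 14 alternatives, and Slc29a2 was not.

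Among 12 organic ion, bile acid and fatty acid carriers, 3 were higher from B6 and none from cast (10.9% and 4.48% of all genes). With embryo terms 5 and 1 were called (25.6% of all genes in either direction). Slc22a27, an organic anion transporter of the mouse, was read almost only from B6. Its cast reads were 2 of 48 in forward 1 and 0 in each other embryo, which had 45, 114, 27, 93, 152, 70 and 60 B6 reads in forward 2 and 3 and reverse 1, 2, 3, 5 and 7. Over both crosses 2 of 609 reads were cast, or 0.328% (interval 0.0398 to 1.18), and the 0 of 402 in the reverse cross allow up to 0.746%. The edgeR adjusted p was 2.13e-08, and a fold from so few cast reads depends on the fit.

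Slc22a5 (chr11:53864542-53891660), Slc22a21 (chr11:53949965-53980332) and Slc22a4 (chr11:53983123-54028090) lie close together on the minus strand. Slc22a4, an ergothioneine transporter, had B6 reads of 64 of 69, 21 of 31 and 14 of 23 in forward and 6 of 6, 14 of 14, 42 of 43, 5 of 5 and 8 of 8 in reverse embryos (log2 of cast over B6 -2.59, SE 0.81, edgeR adjusted p = 0.0398). Slc22a21 was called toward B6 too, with the values given above. Slc22a5, the main carnitine transporter, was not called (adjusted p = 0.755), with a B6 share of 51.2% ± 3.49 (n = 3) when maternal and 77.7% ± 13.6 (n = 5) when paternal. The B6 shares of Slc22a4 and Slc22a5 did not overlap between the crosses, with the paternal B6 allele higher, and neither gene was called between parents (adjusted p = 1, and 0.126 and 0.159 with embryo terms).

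Among 23 amino acid and peptide carriers, 1 was higher from B6 and 2 from cast, and 8 were equivalent between parents. With embryo terms 7 and 4 were called (25.6% of all genes in either direction). Slc7a5, the light chain that exchanges large neutral amino acids with Slc3a2 as partner, had B6 reads of 69 of 88, 76 of 87 and 49 of 59 in forward and 47 of 49, 57 of 73, 35 of 44, 16 of 39 and 18 of 23 in reverse embryos. B6 was ahead in 7 of 8 embryos and behind in reverse 5 (log2 of cast over B6 -1.63, SE 0.41, edgeR adjusted p = 0.00884). Its partner Slc3a2, whose reads were near even, was not called without embryo terms (adjusted p = 0.496). With them it was called toward cast relative to all genes (adjusted p = 0.00214). Gm20388 overlaps Slc7a5 on the other strand.

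Slc1a3, a glutamate and aspartate transporter, was higher from cast. Its B6 reads were 83 of 212, 67 of 243 and 111 of 293 in forward and 381 of 986, 68 of 331, 89 of 282, 45 of 161 and 32 of 129 in reverse embryos. Cast was ahead in all 8 embryos (log2 1.35, SE 0.43, edgeR adjusted p = 0.0441), and the parental alleles were equivalent (adjusted p = 0.0802). Slc7a7, a cationic amino acid exchanger, was called toward cast with an adjusted p of 0.0886, although its B6 share ran from 2.78% in reverse 1 to 64.3% in reverse 5. Slc7a6, the related exchanger, had B6 reads somewhat ahead in all 8 embryos, with a B6 share of 55.1% ± 0.549 (n = 3) and 57.2% ± 3.17 (n = 5).

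Of 5 sugar carriers and 4 monocarboxylate carriers none was called between strains, while 2 sugar carriers were with embryo terms. Slc2a3, a glucose transporter, was one of them, with a B6 share of 65.0% ± 16.2 (n = 3) and 73.6% ± 12.9 (n = 5), B6 reads ahead in all 8 embryos, and an edgeR adjusted p of 0.276 without and 0.0153 with embryo terms. Slc2a1, the glucose transporter of most cells, had 7 to 37 reads an embryo and a B6 share of 58.1% ± 26.3 and 60.1% ± 18.4. Of 5 sodium-coupled sugar, inositol and vitamin carriers 4 were equivalent between parents and 1 was called toward B6. This was Slc5a11, an inositol transporter, with B6 reads of 129 of 184, 108 of 166 and 71 of 94 in forward and 79 of 121, 99 of 166, 254 of 337, 162 of 213 and 131 of 183 in reverse embryos. Its B6 share stayed between 59.6 and 76.1% in all 8 (log2 -0.91, SE 0.35, adjusted p = 0.0967).

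Among 24 mitochondrial carriers (the SLC25 family, with Slc25a17 and Slc25a46 counted in), 2 were called toward cast and none toward B6, and 8 were equivalent between parents. Slc25a4, the ADP/ATP exchanger of heart and muscle, had B6 reads of 263 of 566, 154 of 379 and 197 of 426 in forward and 119 of 277, 204 of 442, 215 of 528, 180 of 435 and 137 of 314 in reverse embryos. Its B6 share stayed between 40.6 and 46.5% in all 8 embryos (log2 0.71, SE 0.24, edgeR adjusted p = 0.0579). Slc25a20, the carnitine-acylcarnitine carrier that brings fatty acids into mitochondria, had a B6 share of 50.4% ± 1.85 and 39.1% ± 3.89 (log2 0.67, SE 0.22, adjusted p = 0.0502). Its forward reads were near even, and its call toward cast is relative to all genes. Slc25a4 and Slc25a20 were also equivalent between parents (adjusted p = 0.0171 and 0.0295), as were 8 of the 21 members called between strains.

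Among 20 carriers of zinc and other metals, 2 importers were higher from B6 and 1 exporter from cast. Slc39a11, a zinc importer of the ZIP family, had B6 reads of 145 of 183, 91 of 137 and 70 of 111 in forward and 39 of 65, 87 of 96, 124 of 137, 83 of 98 and 36 of 53 in reverse embryos. B6 was ahead in all 8 (log2 of cast over B6 -1.36, SE 0.36, edgeR adjusted p = 0.0142). Slc39a1, another importer, had a B6 share of 86.0% ± 8.18 and 71.1% ± 20.3 (adjusted p = 0.0835), with reverse 7 at 36.8%. Slc30a2, an exporter of the ZnT family, had a B6 share of 47.8% ± 26.3 and 21.2% ± 14.5 (adjusted p = 0.0787), and forward 3 was at 77.4%. Sstr2 and Cog1 overlap Slc39a11 on the other strand.

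Among 18 nucleotide sugar and endoplasmic reticulum or Golgi carriers, 2 were higher from B6 and 2 from cast. The 2 toward cast were Slc37a1 and Slc37a2, exchangers of sugar phosphate and phosphate at the endoplasmic reticulum. Slc37a2 had B6 reads of 113 of 393, 77 of 317 and 117 of 511 in forward and 205 of 478, 190 of 466, 115 of 434, 182 of 508 and 201 of 522 in reverse embryos, with cast ahead in all 8. The fitted factor, relative to all genes, was 2.88 (log2 1.53, SE 0.26, edgeR adjusted p = 0.000241). Slc37a1 had B6 reads of 38 of 115, 34 of 95 and 35 of 79 in forward and 5 of 111, 31 of 85, 26 of 80, 10 of 104 and 19 of 80 in reverse embryos (factor 3.22, log2 1.69, SE 0.33, adjusted p = 0.00107). Cast was ahead in every embryo for both genes, and reverse 1 and reverse 5 had the lowest B6 shares of Slc37a1.

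Toward B6 in this class were Slc35a4, of the nucleotide sugar transporter family, and Slc35b3, which brings the sulfate donor PAPS into the Golgi apparatus. Slc35a4 had B6 reads of 58 of 87, 35 of 52 and 74 of 87 in forward and 9 of 15, 63 of 84, 81 of 93, 91 of 113 and 60 of 75 in reverse embryos (log2 -1.45, SE 0.41, edgeR adjusted p = 0.0200), and Apbb3 overlaps it on the other strand. Slc35b3 had a B6 share of 79.7% ± 13.9 and 86.4% ± 20.6 (adjusted p = 0.0734), with 6 of 12 reads in reverse 3.

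Among 8 proton, bicarbonate and anion exchangers, 1 was higher from each strain. Slc9b1, of the sodium-proton exchanger family, had B6 reads of 143 of 164, 42 of 52 and 28 of 38 in forward and 64 of 125, 56 of 71, 36 of 47, 55 of 87 and 54 of 65 in reverse embryos (log2 -1.34, SE 0.37, edgeR adjusted p = 0.0200). Slc4a8, a sodium-driven chloride-bicarbonate exchanger, was read almost only from cast, with B6 reads of 2 of 22, 1 of 3 and 1 of 19 in forward and 3 of 23, 3 of 29, 0 of 12, 0 of 27 and 0 of 15 in reverse embryos. Over both crosses 10 of 150 reads were B6, or 6.67% (interval 3.24 to 11.9), and the log2 ratio of cast over B6 was 3.91 (SE 0.63, adjusted p = 0.000134). None of 8 cation-chloride and calcium exchangers, and none of 5 phosphate, sulfate and dicarboxylate carriers, was called between strains. Slc12a2, which takes up sodium, potassium and chloride together, had a B6 share of 53.0% ± 15.5 and 47.3% ± 15.9.

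**Figure D4:**
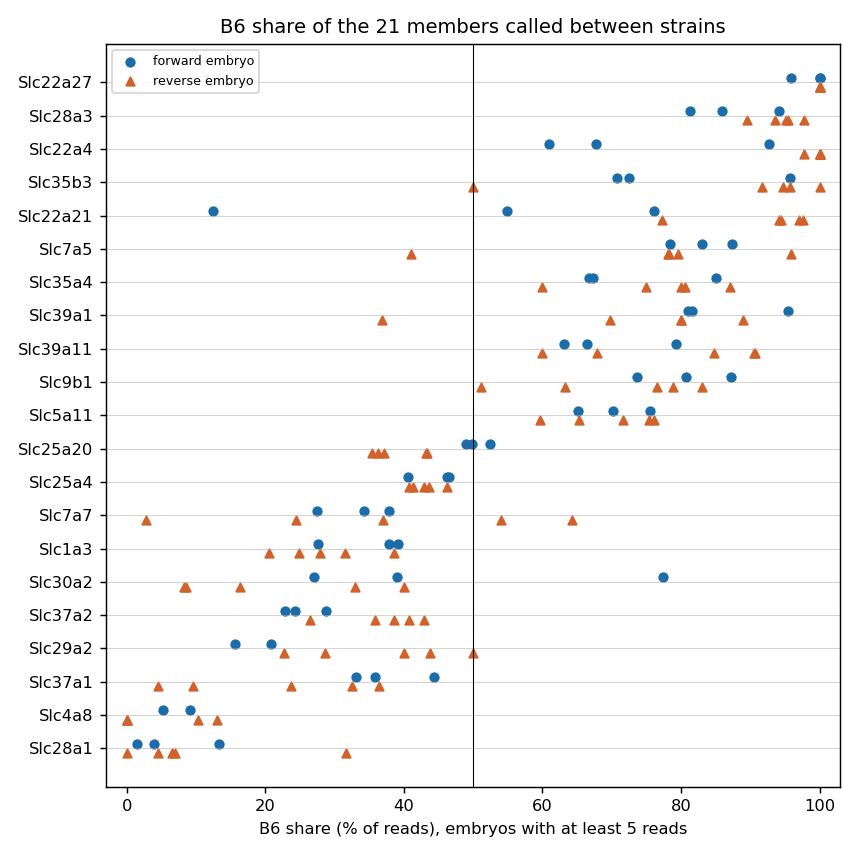
B6 share (% of reads) of the 21 members called between strains in each embryo with at least 5 reads, forward embryos as blue circles and reverse embryos as orange triangles, with a line at equal reads. Slc22a27 points lie at 95.8 to 100% and Slc28a1 points at 0 to 31.6%, and 13 of the 21 genes lean 1 way in every embryo shown.

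The level of each member, alleles summed, was then compared between the crosses, with levels given below as TMM-scaled CPM (CPM over the tested genes, adjusted by the embryo's TMM factor). No member passed (edgeR quasi-likelihood test on summed reads, adjusted over 12566 genes), as 0.103% of all genes did. At an unadjusted p under 0.05 there were 18 members by edgeR and 18 by DESeq2, and DESeq2 called 2 after adjustment, Slc20a1 and Slc24a5. The share of all genes at this unadjusted limit is not given here, so these counts show no excess. The median absolute log2 ratio was 0.43 in members, 0.41 in all genes and 0.33 in those with at least 100 reads. The median log2 ratio of reverse over forward was 0.09 in members and 0.08 in all genes. The trophectoderm and primitive endoderm lists were lower in all reverse than in all forward embryos in CPM without TMM factors. As TMM-scaled CPM the crosses overlapped, at 4279 to 5617 in forward and 1198 to 5152 in reverse embryos for trophectoderm and at 1264 to 1448 and 717 to 1436 for primitive endoderm. The part of these lists in members' levels was not tested. In whole embryos, fewer cells of a type and less RNA per cell cannot be told apart, nor can the cross be told apart from the mother's strain or from the collection of the embryos.

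Slc20a1, a sodium-phosphate cotransporter, had the smallest p. It stood at 36.1, 30.5 and 21.5 TMM-scaled CPM in forward embryos and at 83.5, 126, 35.6, 82.5 and 123 CPM in reverse embryos 1, 2, 3, 5 and 7. Reverse 3 lay within the forward range and the other reverse embryos above it (log2 1.61, SE 0.43, edgeR adjusted p = 0.368, DESeq2 adjusted p = 0.0428). Slc24a5, a potassium-dependent sodium-calcium exchanger, stood at 67.8, 86.0 and 78.4 CPM in forward and at 467, 281, 113, 137 and 143 CPM in reverse embryos. The crosses did not overlap (log2 1.56, SE 0.47, edgeR adjusted p = 0.419, DESeq2 adjusted p = 0.0893). Myef2 overlaps it on the other strand.

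Next by p were Slc22a16, Slc2a9, Slc13a5, Slc4a11, Slc39a6 and Slc6a13 with higher and Slc35b3 and Slco2a1 with lower fitted levels in the reverse cross, all with edgeR adjusted p-values between 0.501 and 0.553. Slco2a1 stood at 134, 182 and 122 CPM in forward and at 22.2, 77.1, 69.5, 45.8 and 109 CPM in reverse embryos, without overlap. Slc22a16, a carnitine transporter, stood at 0.611, 0 and 5.78 CPM in forward and at 8.41, 16.4, 19.9, 7.64 and 26.2 CPM in reverse embryos, from 8 reads in the whole forward cross. Slc4a11, of the bicarbonate transporter family, stood at 67.2, 61.8 and 54.5 CPM in forward and at 60.6, 261, 109, 97.8 and 167 CPM in reverse embryos, with reverse 1 inside the forward range. Without reverse 1, Slc20a1 and Slc4a11 were called (adjusted p = 0.0657 and 0.0650). Members were chosen on reads summed over both crosses, and the reverse cross had more embryos. Slc22a16 and Slc6a13 each had 101 of their 109 reads in the reverse cross, and so entered through that cross. A gene with as few reads that was high only in the forward cross would enter less easily. The part of this choice in the higher reverse levels of such genes was not tested.

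**Figure D5:**
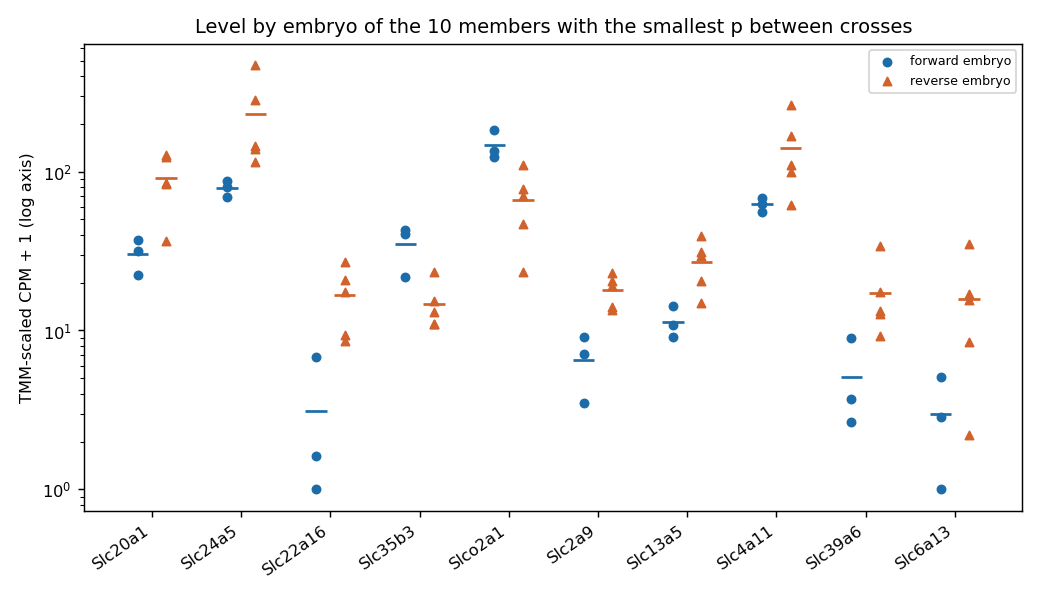
Level of the 10 members with the smallest p between crosses, as TMM-scaled CPM + 1 on a log axis, 1 point per embryo with bars at group means (forward, blue circles, n = 3; reverse, orange triangles, n = 5). Slc24a5 and Slco2a1 do not overlap between the crosses, while for Slc20a1 and Slc4a11 a reverse embryo lies among the forward ones, and none of the 10 passed the test.

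By class, the ratio of the highest to the lowest embryo in summed level ran from 1.43 to 2.64. Mitochondrial carriers summed to 3220 TMM-scaled CPM ± 344 (n = 3) in forward and 3366 ± 670 (n = 5) in reverse embryos, and amino acid carriers to 1967 ± 86.4 and 1928 ± 466. The ratio was 1.43 for nucleotide sugar and Golgi carriers, 1.67 for mitochondrial carriers, 2.55 for sugar carriers and 2.64 for cation-chloride and calcium exchangers, where Slc24a5 in reverse 1 contributed 467 of 801 TMM-scaled CPM.

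The paternal share of members also varied between embryos of 1 cross. Among the 73 members with at least 20 reads in every embryo, the paternal share of the 5 reverse embryos spanned a median of 25.1 percentage points. The median span of all genes with as many reads is not given here, so this is no result about members. Counting error adds to such spans, and its part was not tested. The 5 genes with the widest spans are described, with no test, since the spans chose them. The widest was 66.9 points in Slc35e2, of the nucleotide sugar transporter family, whose paternal reads were 3 of 22 in reverse 1 and 45 of 57, 59 of 75, 87 of 108 and 51 of 64 in the other reverse embryos. Slc35b2, a PAPS transporter, spanned 61.3 points, with 4 of 65 paternal reads in reverse 1 and shares of 44.3 to 67.4% in the other reverse embryos.

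Slc7a7 spanned 61.5 points, with 1 of 36 paternal reads in reverse 1 and 18 of 28 in reverse 5. Slc30a4, a zinc exporter, spanned 61.9 points, from 9 of 48 in reverse 2 to 25 of 31 in reverse 3. In Slc25a46, a protein of the mitochondrial outer membrane, 14 of 62 reads were paternal in reverse 1 and 29 of 35 in reverse 7, a span of 60.3 points. The lowest paternal share was thus in reverse 1 for 4 of these 5 genes, and reverse 1 was also the embryo with the lowest trophectoderm list. Its part in these spans was not tested.

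Transporters known for roles in early embryos were read as a list of 26 genes, of which 24 are in the counts, 20 are members and 21 were tested. None differed between parental alleles, Slc7a5 was higher from B6 and Slc25a4 was higher from cast. Of the 21, 8 were equivalent between parents (38.1%, against 35.4% of all genes and 47.6% of those with at least 100 reads). With embryo terms 6 were called between strains (28.6%, against 25.6% of all genes and 29.8% of those with at least 100 reads). These 2 shares were not above those of genes with at least 100 reads. Slc6a6, the taurine transporter, had a B6 share of 65.4% ± 11.6 (n = 3) and 61.6% ± 5.73 (n = 5), and B6 reads were ahead in all 8 embryos without a strain call (edgeR adjusted p = 0.371). Slc1a5, a neutral amino acid transporter, ranged from 7.75 to 57.5 TMM-scaled CPM over all embryos, and Slc1a4, its relative, from 0 CPM in reverse 2 to 43.4 CPM in forward 1. Some of the list were barely read, with 3 reads of Slc7a11 (cystine uptake), 8 of Slc9a3 (sodium-proton exchange), 10 of Slc16a3 (lactate) and 80 of Slc30a1 (zinc export).

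Transport proteins and partners outside the Slc naming made a list of 32 genes, with 25 in the counts and 24 tested. None differed between parental alleles or between crosses. Equivalent between parents were 13 (54.2%, against 35.4% of all genes and 47.6% of those with at least 100 reads), and 2 were higher from B6 (8.33% of those tested, against 10.9%). These were Mpc1, a subunit of the mitochondrial pyruvate carrier (log2 of cast over B6 -3.46, edgeR adjusted p = 0.000629), and Slc9a3r1, a scaffold protein that binds transporters (log2 -0.80, adjusted p = 0.0519).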

How the data were processed

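RNA of 8 single blastocysts was profiled by SMART-Seq2 from polyadenylated RNA. The authors aligned reads to mm10 with STAR (2.5.2b in the submitters' processing notes, which also name SAMtools 1.9-92 and bedtools), left out reads mapping to several places, assigned reads over B6/cast SNPs to a strain and removed 2 samples with few mapped or few total reads. The embryos were not matched for sex. The deposited values are raw counts, not normalized, of the reads over SNPs for each allele of a gene in each embryo, from an intermediate step of Allelome.Pro. There were no molecular identifiers, and depth was 1060063 to 1632695 reads an embryo. Read mapping to the B6 reference, SNP density and overlapping genes can change allelic counts.

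Members and lists were chosen with earlier results of these data known. Gene positions came from GENCODE M21, and all 147 members were matched, 54 of them overlapping another gene (49 on the other strand). Paternal, strain and equivalence tests used edgeR 4.0.16 (R 4.3.3, limma 3.58.1) with TMM over 16 allele libraries, the quasi-likelihood test, terms for strain and parent, autosomal genes reaching 10 reads in 1 or more allele libraries, and Benjamini-Hochberg adjustment over all 12566 genes (adjusted p at most 0.1). Equivalence used paired one-sided tests against a log2 margin of 1. Levels between crosses used the sum of both alleles. Members' levels are TMM-scaled CPM, from summed reads of the tested genes and TMM factors over 8 embryos. Marker lists are CPM over all SNP-spanning reads of the embryo, without TMM factors. Shares are mean ± SD over embryos with reads. The 70:30 criterion asked for that ratio, with a pseudocount of 0.1, in 60% or more of embryos in both crosses. Alternatives were DESeq2 1.42.0, RLE factors, 1 library size per embryo, other filters, leaving out each embryo and a replicate block.

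The block is a term for each embryo, because both alleles come from the same animal. Deviations of maternal and paternal counts from the group means correlated within each embryo (r = 0.124, 0.101 and 0.178 in forward 1, 2 and 3, and 0.576, 0.252, 0.515, 0.205 and 0.191 in reverse 1, 2, 3, 5 and 7). Embryos with the same number in both crosses correlated at 0.195, 0.0224 and 0.159 and come from different animals, so the numbers do not pair the crosses.

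Named genes were those called between parents and the 5 next by p toward each parent, up to 10 toward each strain among called genes leaning 1 way in all of at least 6 embryos with at least 5 reads, the 10 smallest p between crosses, the 5 widest ranges of paternal share among reverse embryos, the 5 with the most reads, the neighbours of the 100-read limit and the genes of the lists. Members called with embryo terms, the other strain calls, Slc22a5 and Slc29a2 were named after their values were seen. Tested on simulated data, the parental test found 83% of genes changed by log2 2 and 99% of those changed by log2 3 among 11467 genes, and 5.70% of the genes it called had not been changed. For the level between crosses these values were 77%, 94% and 9.52% among 12566 genes. The simulated counts had no strain differences and no correlation between the alleles of an embryo, and only genes with at least 100 reads were changed. The values may therefore differ from those of the tests on the real data.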

Additional observations from a re-analysis of the deposited data

Results flagged for a closer look

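Of 40 groups of values examined with Dixon's test, 5 held an embryo far from the others of its cross, and chance flags about 1 in 20 groups where values are not at a limit. The paternal share of Slc29a4 was 82.6% in reverse 1 and 100% in the other reverse embryos. The paternal share of Slc22a21 was 77.3% in reverse 3 and 94.1 to 97.5% in the others. The B6 share of Slc22a4 was 97.7% in reverse 3, from 1 cast read of 43, and 100% in the others. With all others at 100%, as for Slc29a4 and Slc22a4, any single differing read meets the criterion, so these entries carry no weight. The B6 share of Slc28a1 was 31.6% in reverse 1 and 0 to 6.98% in the others. The paternal share of Slc35e2 was 13.6% in reverse 1 and 78.7 to 80.6% in the others, and this gene had been picked for its wide range.

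The difference between paternal and maternal expression itself differed between the crosses in 21 members, which are the members called between strains.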

How the results depend on the processing

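The count of members called between parents was 1, and 1 by DESeq2, with RLE size factors and with 1 library size per embryo, 3 without a filter on low counts, 6 with the replicate block, 0 with at least 10 reads in every embryo (4 at an unadjusted p under 0.05 by edgeR) and 0 to 1 when each embryo was left out. Those meeting the skewed-expression criteria numbered 1, 2 with the block, 0 with at least 10 reads in every embryo and 0 to 1 without an embryo, and the 70:30 criterion kept 1. The 21 strain calls became 29 by DESeq2, 27 without a filter, 16 with at least 10 reads in every embryo, 33 with 1 library size per embryo, 48 with the block and 11 to 34 without an embryo. The 50 equivalent members became 67 by DESeq2, 45 with RLE size factors, 84 with the block, 0 with a 1.5-fold margin (0 of all genes, 11 members at an unadjusted p under 0.05 by edgeR) and 16 to 74 without an embryo. They were 31 without reverse 5. No member differed between crosses, but 2 did by DESeq2, 2 without a filter and 0 to 2 without an embryo (2 without reverse 1 and 2 without reverse 3), and blocking on the embryo number gave 0. Over all genes tested the block moved parental calls from 178 to 391, strain calls from 1935 to 3212 and equivalent genes from 4446 to 5694. Of the fold changes recomputed under the alternatives, those of the member called and those next by p between parents, the 21 strain calls and the 10 smallest p between crosses, none reversed its direction. Among fold changes of single genes under the alternatives, 236 strain values kept their side of the threshold and 54 lost the call, 139 parental values kept it, 5 gained and 6 lost it, and 118 values between crosses kept it and 7 gained it. The widest range of paternal share was 94.3 points (Slc16a6) with at least 10 reads in every embryo and 61.3 (Slc35b2) with at least 50. Where counts moved, the cause was not tested, except that leaving out an embryo or requiring reads in every embryo leaves fewer embryos or genes. Genes near 100 reads have few reads per embryo, which limits their shares. Counts at an unadjusted p are given without their share over all genes. So are the counts of members under the alternatives, apart from the block and the 1.5-fold margin. Such counts are no result about members.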
